A study of Mus musculus with 15 samples.

Results

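The genes of the translation initiation factors (eIF) and translation elongation factors (eEF) were compared between mature and fully grown immature oocytes of the mouse, cell by cell. The set is all protein-coding genes whose symbol begins with Eif or Eef, without Eif4e1b and Eif4enif1, which gave 67 genes of the 28785 gene IDs that had a count in any oocyte. By symbol, 10 belong to eIF1, eIF5 and eIF6, 15 to eIF2 and the factors named after it, 14 to eIF3, 14 to eIF4 and 14 to elongation. Of the 67 genes, 66 had a count and 55 were measured, meaning that they reached at least 5 CPM (counts scaled to an equal total in every library) in the counts summed over 1 of the stages.

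RNA of single cells was amplified and sequenced by MATQ-seq, which takes total RNA, from 6 MII oocytes and 9 GV oocytes, 1 library per oocyte. MII oocytes are mature eggs held at metaphase of meiosis II. They came from the oviducts of mice primed with pregnant mare serum gonadotropin (7 IU) and, about 48 h later, given human chorionic gonadotropin (7 IU), and their cumulus cells were removed with hyaluronidase (300 IU/mL) after a further 20 h. GV oocytes are fully grown oocytes arrested in meiotic prophase with an intact nucleus, the germinal vesicle, and were collected 44 h after the same priming dose without the second hormone. All mice were females of about 6 to 8 weeks. The labels give neither a strain nor the mouse of any oocyte, so the oocytes of a stage are cells of 1 sample. The data therefore allow no test between the stages, and each difference is given by its size beside the spread between oocytes.

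In initiation, eIF2 carries the initiator tRNA to the small ribosomal subunit, eIF3 holds the complex together, and the eIF4 factors bind the cap of the mRNA and unwind its leader. In elongation, eEF1A brings each aminoacyl-tRNA and eEF2 moves the ribosome along. The fully grown mouse oocyte is transcriptionally silent and stores mRNA, and during maturation parts of this store are translated, silenced or degraded.

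Total counts were 808641 to 2348281 per MII oocyte (median 1584711.5) and 3687610 to 7103063 per GV oocyte (median 4805815). A single feature without a symbol in the gene table took 15.7% to 61.2% of the counts of the MII oocytes and 0% to 11.2% of those of the GV oocytes, and it is part of the totals behind CPM. The median measured gene stood at 9.10 to 19.1 CPM in MII oocytes and at 21.3 to 33.3 CPM in GV oocytes, a log2 ratio MII/GV of −0.98 in the summed counts. All ratios that follow are log2 MII/GV minus that of this median gene, so a ratio between 0 and 0.98 is lower in MII on the CPM scale. Relative level means log2(CPM + 1) less the same value for the median measured gene of that oocyte. Behind each ± stands the spread between oocytes, which combines the SD of relative level over 6 MII oocytes with that over 9 GV oocytes and does not measure the error of a mean. The 1 added to CPM narrows this spread near 0 CPM, while ratios come from summed counts. For genes with few MII counts, such as Eef1g, Eif2a and Eif2ak3, ratio and ± are therefore not on the same scale. GV1 to GV6 and GV7 to GV9 carry different kinds of column header in the files and the MII files another, so effects of stage and of file set cannot be told apart. Ratios against 1 set of GV oocytes are given for genes that depend on it. All 12 oocyte marker genes were measured, and they summed to 5614 to 8092 CPM in MII oocytes and 7450.2 to 30375 CPM in GV oocytes. The 18 cumulus and granulosa cell markers summed to 17.6 to 83.7 CPM in MII oocytes and 105 to 366 CPM in GV oocytes. Of them, 9 were at 0 counts in all MII oocytes, among them Inha, Amh and Foxl2. Nr5a2 and Cyp19a1 had counts in all 6 MII oocytes. In the summed counts Nr5a2 was at 31.3 CPM in MII and 83.8 CPM in GV, and Cyp19a1 at 15.6 CPM in MII and 17.1 CPM in GV. Markers of theca and stroma reached 24.3 CPM in MII oocytes and 24.6 CPM in GV oocytes, those of blood and immune cells 11.5 CPM in MII and 8.34 CPM in GV, and those of oviduct epithelium 0.657 CPM in MII and 11.5 CPM in GV. The part of such cells in the results below was not tested.

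Most initiation and elongation factor mRNAs had the MII/GV ratio of the median gene within 2-fold. The genes of eIF3 as a group, Eef1g and Eif2a stood lower in MII, and Eif6, Eif4e and Eif4e3 had the highest ratios. Of the 55 measured genes, 44 lay within 2-fold of the median gene. At least 2-fold lower in MII were 9, and over all 10090 measured genes this share was 15.5%. At least 2-fold higher were 2, where the share over all genes was 12.1%. The first count is close to the share over all genes, and the second is below it. The median ratio of the 55 genes was −0.04 ± 0.23, and their ratios ran from −4.43 for Eef1g to 1.44 for Eif6.

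The genes summed to 3957 to 6701 CPM in MII oocytes (median 5098) and 6158 to 10175 CPM in GV oocytes (median 7035). Relative to the median gene the stages lay closer together, and the relative level of the set per oocyte was 1.10 to 1.42 in MII oocytes (median 1.25) and 1.22 to 1.85 in GV oocytes (median 1.52). Thinned to 808641 counts each, MII oocytes held 48 to 56 of the 67 genes (median 53.5) and GV oocytes 55 to 60 (median 58). Genes of all kinds were also fewer in MII, at 8891 to 12504 (median 11041.5) against 12366 to 15229 in GV oocytes (median 13467). The largest single feature is part of the thinned counts. Unthinned, MII oocytes held 53 to 56 of the 67 genes and GV oocytes 58 to 63.

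**Figure D1:**
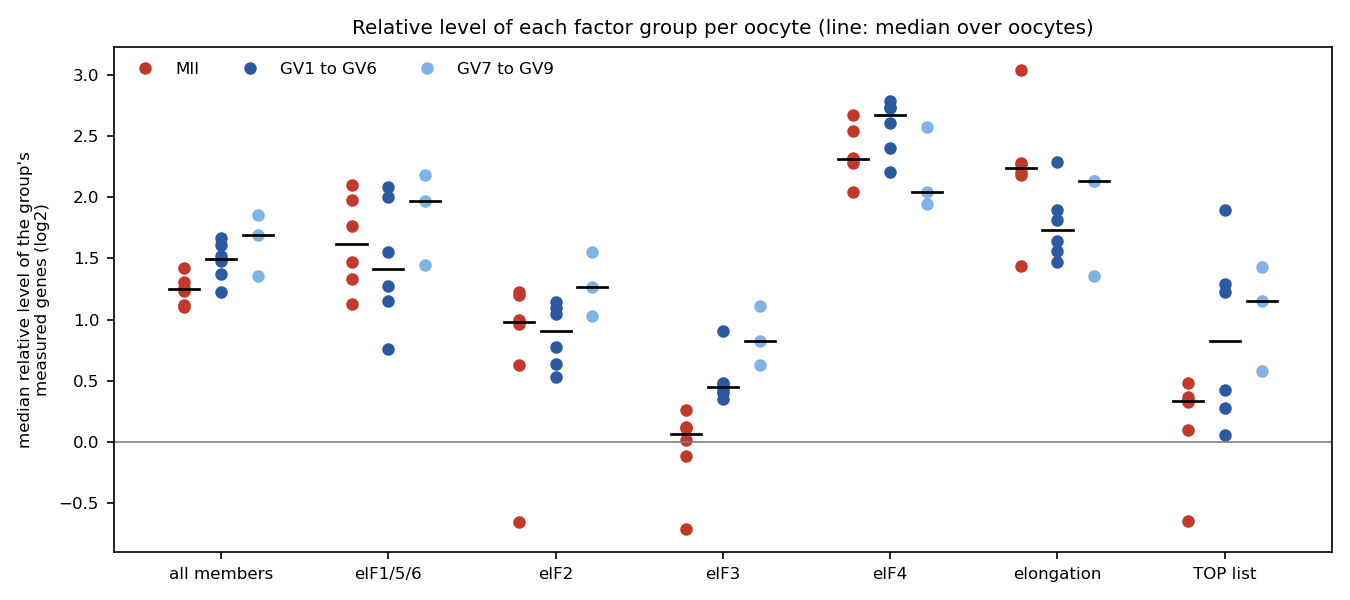
Relative level of each group of factors per oocyte. The vertical axis is the median over the group's measured genes of log2(CPM + 1) relative to the median measured gene of that oocyte, points are oocytes (MII, then GV1 to GV6 and GV7 to GV9) and lines are medians over oocytes. The MII oocytes lie below the GV oocytes for eIF3 (−0.72 to 0.26 in MII, 0.35 to 1.11 in GV), while the stages overlap in the other groups.

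The groups of factors had unlike medians. The median ratio was lowest for eIF3, at −0.76 ± 0.44 over 14 genes, and close to 0 for eIF2 (−0.05 ± 0.77, 12 genes) and eIF4 (0.06 ± 0.38, 12 genes). It was 0.14 ± 0.62 for the 8 measured genes of eIF1, eIF5 and eIF6 and 0.46 ± 0.60 for the 9 of elongation, whose mean was −0.33. The median of elongation was 0.29 with GV1 to GV6 alone and −0.67 with GV7 to GV9 alone. In relative level per oocyte the ranges of the stages overlapped for every group but eIF3. Of single genes, only Eef1g had all 6 MII oocytes below all 9 GV oocytes in relative level (0.684% of all measured genes), and only Eif4e3 had all of them above (1.61% of all). On the CPM scale all MII oocytes lay below all GV oocytes for 8 genes (4.65% of all measured genes) and above them for 0 (0.0892%). These 8 were Eif2a, Eif2b1, Eif3a, Eif3d, Eif3l, Eif4g1, Eif4g2 and Eef1g.

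The 2 sets of GV oocytes also differed from each other. Relative to the median gene, GV7 to GV9 stood at least 2-fold above GV1 to GV6 in 13 of the 55 genes (18.1% of 10764 genes measured there) and at least 2-fold below in 4 (20.2%). With GV1 to GV6 alone as the GV oocytes, 8 genes were at least 2-fold lower in MII (15.5% of all measured genes) and 3 at least 2-fold higher (12.7%). With GV7 to GV9 alone, 12 were lower (17.7%) and 9 higher (23.4%). The cumulus and granulosa cell markers differed between the sets as well. They summed to 130 to 136 CPM in GV7 to GV9 and 105 to 366 CPM in GV1 to GV6, and of the 7 measured in this comparison 6 were at least 2-fold lower in GV7 to GV9, with a median log2 ratio GV7 to GV9 over GV1 to GV6 of −2.90. The median MII/GV ratio of the 4 measured between the stages was −3.54 with GV1 to GV6 alone and 0.10 with GV7 to GV9 alone. Their part in the differences between the sets was not tested.

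**Figure D2:**
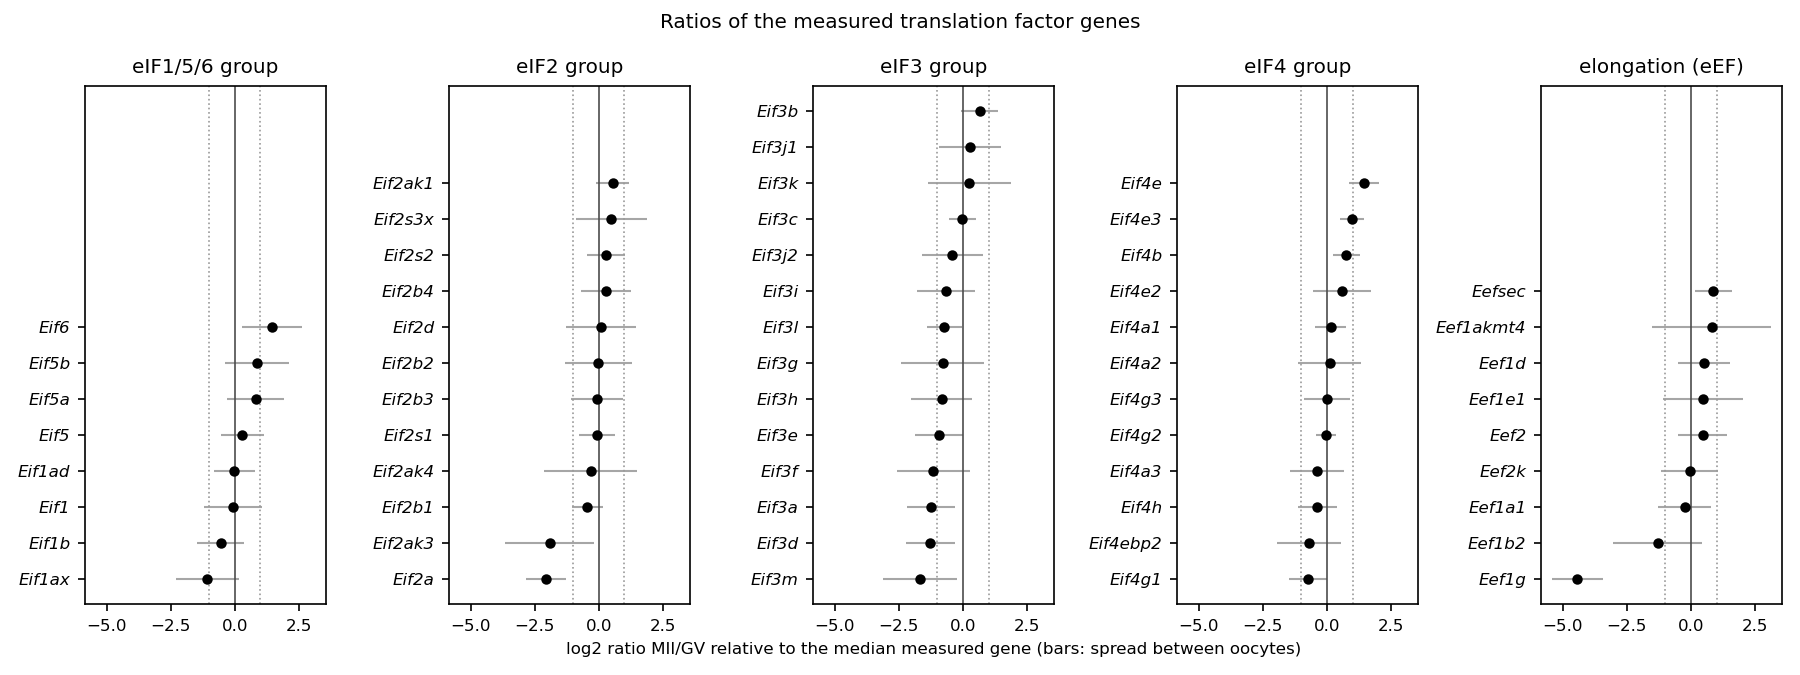
Log2 ratio MII/GV relative to the median measured gene of the 55 measured genes, by group of factors. Points are ratios of the summed counts, bars are the spread between oocytes to either side, and dotted lines mark 2-fold. Of the 14 eIF3 genes 11 lie below 0, and Eef1g lies furthest from 0, at −4.43.

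In the eIF1, eIF5 and eIF6 group, Eif6 had the highest ratio and Eif1ax the lowest. Eif6 encodes a factor that keeps the large ribosomal subunit from joining the small one too early. It was at 196 to 717 CPM in MII oocytes (median 412) and 146 to 736 CPM in GV oocytes (median 269), so the ranges overlapped. Its ratio was 1.44 ± 1.18 with all oocytes and 0.71 without MII5 and MII6. GV4, at 736 CPM, stood apart from the other GV oocytes. Eif6 was at 453 CPM in the summed MII counts (95% interval 439.5 to 467, exact Poisson) and 329 CPM in the summed GV counts (324 to 335). These intervals cover counting error alone and not the spread between oocytes. Level per kb is CPM divided by the length of all annotated exons of a gene, those of every isoform merged. It is not the abundance of a transcript, since the isoform present may be shorter than this length. By this measure Eif6 was the highest of the group in MII, at 168 CPM per kb, and Eif5a in GV, at 135 CPM per kb.

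Eif1ax encodes eIF1A, which with eIF1 keeps the scanning ribosome open until it meets a start codon. It was at 7.23 to 18.5 CPM in MII oocytes (median 12.3) and 16.0 to 137 CPM in GV oocytes (median 40.1), and in CPM only the upper MII values reached the lower GV values. In relative level Eif1ax overlapped more widely, at −1.29 to 0.68 in MII and −0.46 to 2.19 in GV. Its ratio was −1.08 ± 1.23, at −0.57 with GV1 to GV6 alone and −2.08 with GV7 to GV9 alone. Its copy Eif1a had 0 MII counts and 17 GV counts and was not measured. The eIF1 genes were closer to the median gene, at −0.06 ± 1.13 for Eif1 and −0.55 ± 0.92 for its paralog Eif1b. Eif1b took the larger part of their summed level per kb in both stages, 62.2% in MII and 69.7% in GV. In single oocytes its share ran from 49.6% to 84.3% in MII and from 39.3% to 80.6% in GV. The order depends on the exon length. In summed CPM, Eif1 was the higher in MII (24.5 against 21.6 CPM) and Eif1b in GV (62.6 against 50.7 CPM).

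Eif5a encodes a factor with the modified residue hypusine that helps ribosomes past poorly reacting residues. It was at 183 to 411 CPM in MII oocytes (median 243) and 151 to 662 CPM in GV oocytes (median 249.9), overlapping over most of the range, with a ratio of 0.81 ± 1.10. Its paralog Eif5a2 had 1 MII count and 27 GV counts, so Eif5a held 99.98% of the pair's level per kb in MII and 99.9% in GV. Eif5b, the GTPase that joins the ribosomal subunits, was at 73.2 to 1071 CPM in MII oocytes (median 436) and 222 to 1027 CPM in GV oocytes (median 438), with a ratio of 0.86 ± 1.25. Eif5, which stimulates GTP hydrolysis by eIF2, had a ratio of 0.30 ± 0.84. Eif1ad, a relative of eIF1A, had one of −0.02 ± 0.80, but its gene overlaps Banf1 on the other strand, which was at 1280 CPM in MII and 404 CPM in GV.

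Among the genes of eIF2, those of the 3 subunits stayed near the median gene. The ratio was −0.08 ± 0.71 for the alpha subunit Eif2s1, whose phosphorylation lowers initiation in stressed cells, 0.29 ± 0.74 for the beta subunit Eif2s2 and 0.49 ± 1.38 for the gamma subunit Eif2s3x. Eif2s2 was the most abundant of them in CPM, at 75.9 to 291 CPM in MII oocytes (median 163) and 114 to 513 CPM in GV oocytes (median 246). The Y-linked gamma subunit gene Eif2s3y had 1 count in all oocytes together, in GV.

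The 5 eIF2B genes encode the exchange factor that reloads eIF2 with GTP. Eif2b1, of the alpha subunit, had the highest level per kb of the eIF2 group in both stages, 58.2 CPM per kb in MII and 157 CPM per kb in GV. It was at 128 to 173 CPM in MII oocytes (median 150.2) and 188 to 593 CPM in GV oocytes (median 363), so every MII oocyte was below every GV oocyte on the CPM scale. Relative to the median gene the stages overlapped, with a ratio of −0.45 ± 0.60. The ratio was −0.02 ± 1.32 for Eif2b2, −0.08 ± 1.02 for Eif2b3 and 0.28 ± 0.96 for Eif2b4. Eif2b5, of the catalytic epsilon subunit, stayed under the minimum, at 3.43 CPM in MII and 4.15 CPM in GV.

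The 4 kinases of eIF2 alpha had unlike ratios. Eif2ak3 (PERK, activated by unfolded protein in the endoplasmic reticulum) was at 0 to 5.26 CPM in MII oocytes (median 0) and 0.208 to 31.7 CPM in GV oocytes (median 6.82), with 4 of 6 MII oocytes at 0. Its ratio of −1.93 ± 1.72 rested on few counts, 10 in MII and 359 in GV, and was −3.63 without MII2. It was −1.24 with GV1 to GV6 alone and −3.08 with GV7 to GV9 alone. Eif2ak1 (HRI, activated when heme is short) had the highest ratio of the eIF2 group. It was at 76.5 to 179.7 CPM in MII oocytes (median 123) and 94.7 to 307 CPM in GV oocytes (median 155), with a ratio of 0.54 ± 0.65, which was −0.17 against GV7 to GV9. Eif2ak4 (GCN2, activated by uncharged tRNA) had a ratio of −0.32 ± 1.82, and Eif2ak2 (PKR, activated by double-stranded RNA) had 0 MII counts and 17 GV counts.

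Eif2a encodes a separate protein, not an eIF2 subunit, that can also deliver initiator tRNA. It had the lowest ratio of the eIF2 group, −2.06 ± 0.78. Its level was 0 to 1.46 CPM in MII oocytes (median 1.23), against 1.97 to 13.8 CPM in GV oocytes (median 8.68). The stages did not overlap in CPM and did overlap in relative level. The sums were 8 MII counts and 318 GV counts, so the MII level is known only within wide limits (0.831 CPM, exact Poisson 95% interval 0.359 to 1.64). Eif2d, a factor that can load tRNA and recycle ribosomes, had a ratio of 0.10 ± 1.36.

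The eIF3 genes stood lowest as a group. Of the 14 genes, all of them measured, 4 were at least 2-fold lower in MII (15.5% of all measured genes), 0 were higher (12.1%) and 11 had a ratio below 0, where 50.0% of all measured genes lie by definition. The relative level of the group per oocyte was −0.72 to 0.26 in MII oocytes (median 0.06), against 0.35 to 1.11 in GV oocytes (median 0.48), so that every MII oocyte was below every GV oocyte. The median ratio of −0.76 ± 0.44 was −0.35 with GV1 to GV6 alone and −1.05 with GV7 to GV9 alone.

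The subunits a, b, c, g and i, which budding yeast also has, had a median ratio of −0.66 (−0.25 with GV1 to GV6 alone and 0.21 with GV7 to GV9 alone). The subunits d, e, f, h, k, l and m, which budding yeast lacks, had a median of −0.94 (−0.58 with GV1 to GV6 alone and −1.85 with GV7 to GV9 alone). In relative level per oocyte the genes of a, b, c, g and i were at 0.73 to 1.58 in MII oocytes (median 1.02) and 0.28 to 1.99 in GV oocytes (median 1.22), overlapping. The genes of d, e, f, h, k, l and m were at −1.12 to 0.24 in MII oocytes (median −0.45) and 0.06 to 1.37 in GV oocytes (median 0.58), overlapping at their edges.

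The 4 genes at least 2-fold lower were Eif3m, Eif3d, Eif3a and Eif3f. Eif3m, a subunit with a PCI domain, was at 0 to 13.6 CPM in MII oocytes (median 3.79) and 4.51 to 64.3 CPM in GV oocytes (median 21.6), with a ratio of −1.67 ± 1.44. Its gene overlaps Ccdc73 on the other strand, at 6.54 CPM in MII and 15.6 CPM in GV. Eif3d, which can bind the cap of certain mRNAs, was at 3.03 to 23.3 CPM in MII oocytes (median 11.8), against 25.0 to 108 CPM in GV oocytes (median 39.2). The stages did not overlap in CPM, and the ratio was −1.27 ± 0.95 (−0.92 with GV1 to GV6 alone and −2.06 with GV7 to GV9 alone). Eif3a, the largest subunit and the scaffold of the complex, was at 2.43 to 32.2 CPM in MII oocytes (median 14.2), against 38.9 to 136 CPM in GV oocytes (median 49.5). It too did not overlap in CPM and had a ratio of −1.25 ± 0.95 (−1.42 and −0.78 in the same order). Eif3f was at 1.46 to 8.66 CPM in MII oocytes (median 3.99) and 3.52 to 65.9 CPM in GV oocytes (median 16.0), with a ratio of −1.15 ± 1.42 (−0.58 and −2.20 in the same order), and its stages overlapped.

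Against them stood Eif3b, with the highest ratio of the group. Eif3b, which binds the ribosome and anchors g and i, was at 21.7 to 71.3 CPM in MII oocytes (median 51.4) and 19.5 to 83.9 CPM in GV oocytes (median 57.6), and its ratio was 0.66 ± 0.73. Eif3c, another large subunit, had a ratio of −0.02 ± 0.54. Eif3k had the highest level per kb of the group, 35.6 CPM per kb in MII and 59.2 CPM per kb in GV. Its ratio of 0.25 ± 1.61 was 1.66 against GV7 to GV9 and −0.71 without MII5 and MII6. The ratios of Eif3e, Eif3g, Eif3h, Eif3i and Eif3l lay between −0.94 and −0.66. Of the copies of the loosely bound subunit j, Eif3j1 was at 0.27 ± 1.20 and Eif3j2 at −0.42 ± 1.19. Near-identical copies such as these may share reads.

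Several eIF3 genes differed between the sets of GV oocytes as well. Relative to the median gene, GV7 to GV9 stood at least 2-fold above GV1 to GV6 in 6 of the 14 (18.1% of all genes measured there). These were Eif3d, Eif3f, Eif3h, Eif3i, Eif3j2 and Eif3l. At least 2-fold below were 2 (20.2%), Eif3g at −1.41 and Eif3k at −1.65. With GV7 to GV9 alone, 7 of the 14 were at least 2-fold lower in MII (17.7% of all measured genes) and 1 at least 2-fold higher (23.4%). With GV1 to GV6 alone, 4 were lower (15.5%) and 0 higher (12.7%).

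**Figure D3:**
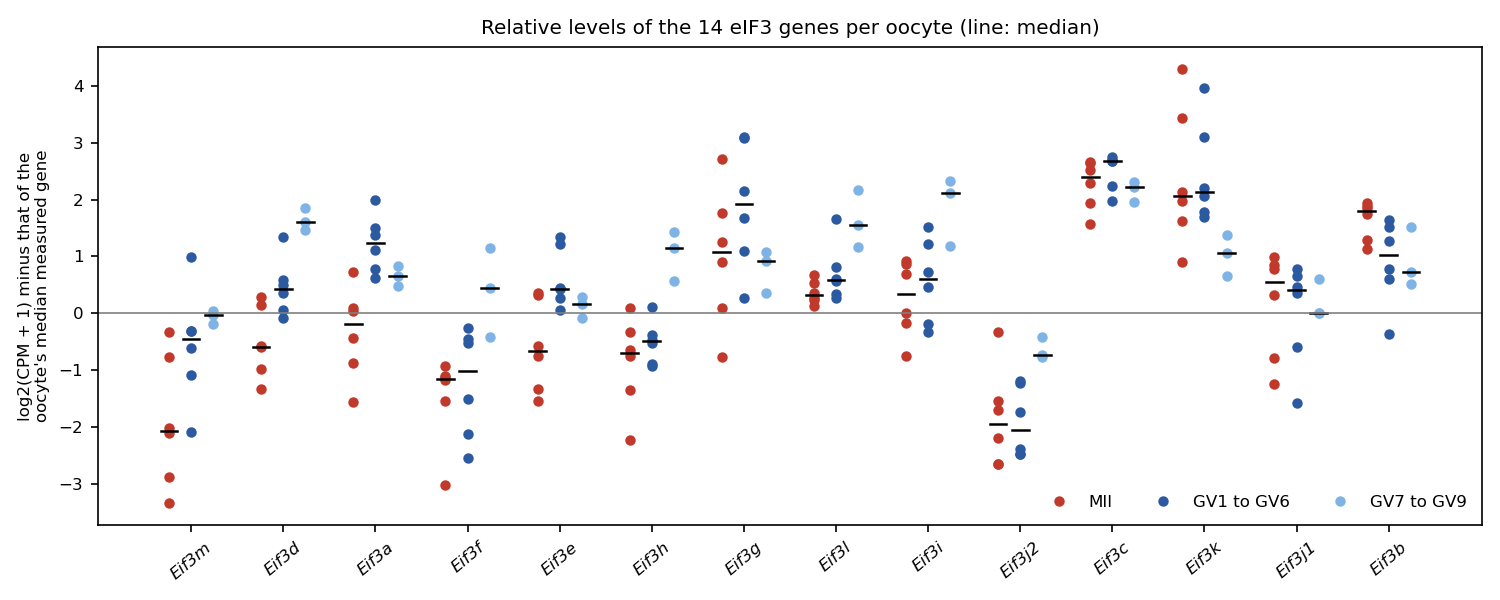
Relative level of the 14 eIF3 genes in each oocyte, as log2(CPM + 1) relative to the median measured gene of that oocyte, with genes ordered by ratio. Points are oocytes (MII, GV1 to GV6, GV7 to GV9) and lines medians. Each of the 14 genes overlaps between MII and all GV oocytes on this scale, although MII medians are lowest for most, and for Eif3f, Eif3h, Eif3i and Eif3l the GV7 to GV9 oocytes lie mostly above GV1 to GV6.

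In the eIF4 group the cap-binding genes Eif4e and Eif4e3 had the highest ratios. Eif4e encodes the main cap-binding protein, the target of the eIF4E-binding proteins. It was at 361 to 749 CPM in MII oocytes (median 522) and 191 to 721 CPM in GV oocytes (median 338), with a ratio of 1.44 ± 0.57 (1.32 with GV1 to GV6 alone and 1.73 with GV7 to GV9 alone). Eif4e and Eif6 were the only measured genes of the 55 at least 2-fold above the median gene, and the summed level of each was also higher in MII in CPM, by a log2 ratio of 0.46. In single oocytes their ranges overlapped on both scales, in relative level 4.60 to 5.28 in MII and 3.11 to 4.78 in GV for Eif4e. Eif4e was at 505 CPM in the summed MII counts (95% interval 491 to 519, exact Poisson) and 367 CPM in the summed GV counts (362 to 373). Here too the intervals leave out the spread between oocytes.

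Eif4e3, whose product binds the cap in another way and does not bind the eIF4E-binding proteins, was at 56.4 to 224 CPM in MII oocytes (median 124) and 92.0 to 159 CPM in GV oocytes (median 119). In CPM the ranges overlapped and the summed levels were alike, with a log2 ratio of −0.01. In relative level every MII oocyte (2.51 to 3.49) was above every GV oocyte (1.62 to 2.49), by a narrow margin, and the ratio was 0.98 ± 0.47. Eif4e2 (4EHP), a cap-binding repressor, had a ratio of 0.59 ± 1.14, at 1.73 against GV7 to GV9 and −0.03 without MII5 and MII6. Of the summed level per kb of these 3 genes, Eif4e held 61.1% in MII and 52.3% in GV, and Eif4e3 34.3% in MII and 40.6% in GV. Shares in single oocytes overlapped. They ran from 56.9% to 65.9% in MII and 38.2% to 67.4% in GV for Eif4e, and from 22.7% to 40.6% and 26.6% to 58.7% for Eif4e3.

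The scaffold genes took another order. Eif4g1, the main scaffold between the cap-binding protein, the helicase and eIF3, had the lowest ratio of the group. It was at 18.2 to 87.4 CPM in MII oocytes (median 65.8), against 115 to 316 CPM in GV oocytes (median 159.8). The stages did not overlap in CPM, while the ratio was −0.73 ± 0.75. Eif4g2 (DAP5), which lacks the binding site for eIF4E, did not overlap in CPM either but was at −0.04 ± 0.39, close to the median gene. Eif4g3 was at 0.00 ± 0.91. Eif4g1 held 20.4% of the level per kb of the 3 scaffold genes in MII and 29.6% in GV, while single oocytes ran from 9.87% to 34.4% in MII and from 23.3% to 38.3% in GV.

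The helicase genes and their helpers lay within 2-fold of the median gene. The ratio was 0.15 ± 0.60 for the helicase Eif4a1, 0.11 ± 1.23 for its paralog Eif4a2 (0.73 without GV1 and GV2) and −0.38 ± 1.05 for Eif4a3, which serves the exon junction complex and not initiation. Eif4a3 had the largest level per kb of the 3, 58.8% of their sum in MII and 67.2% in GV. In single oocytes its share ran from 37.8% to 75.5% in MII and from 42.1% to 76.7% in GV. This order too depends on the exon length. In summed CPM, Eif4a1 was above Eif4a3 in MII (68.1 against 51.0 CPM) and below it in GV (121 against 131 CPM). The helicase cofactor Eif4b, highest of the group per kb in GV at 72.2 CPM per kb, was at 132 to 352 CPM in MII oocytes (median 312) and 212 to 454 CPM in GV oocytes (median 297), with a ratio of 0.76 ± 0.53. Eif4h, a related cofactor, had a ratio of −0.39 ± 0.76.

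Of the eIF4E-binding proteins, which hold back initiation until phosphorylated, Eif4ebp2 alone was measured. It was at 3.83 to 45.8 CPM in MII oocytes (median 19.8) and 12.1 to 90.3 CPM in GV oocytes (median 60.3), with a ratio of −0.70 ± 1.26. Eif4ebp1 had 6 MII counts, all in MII5, and 1 GV count. Eif4ebp3 had no count in any oocyte, which by counting alone allows up to 0.311 CPM in MII and 0.0683 CPM in GV for a limit of 3 counts over the stage. Its gene overlaps the protein-coding gene AC115631.1 on the same strand, which had 5 MII counts and 73 GV counts. Reads of Eif4ebp3 may have been counted there or left out, so its level may lie above these limits. These limits and the intervals cover counting error only, since reads amplified by PCR are not independent molecules.

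**Figure D4:**
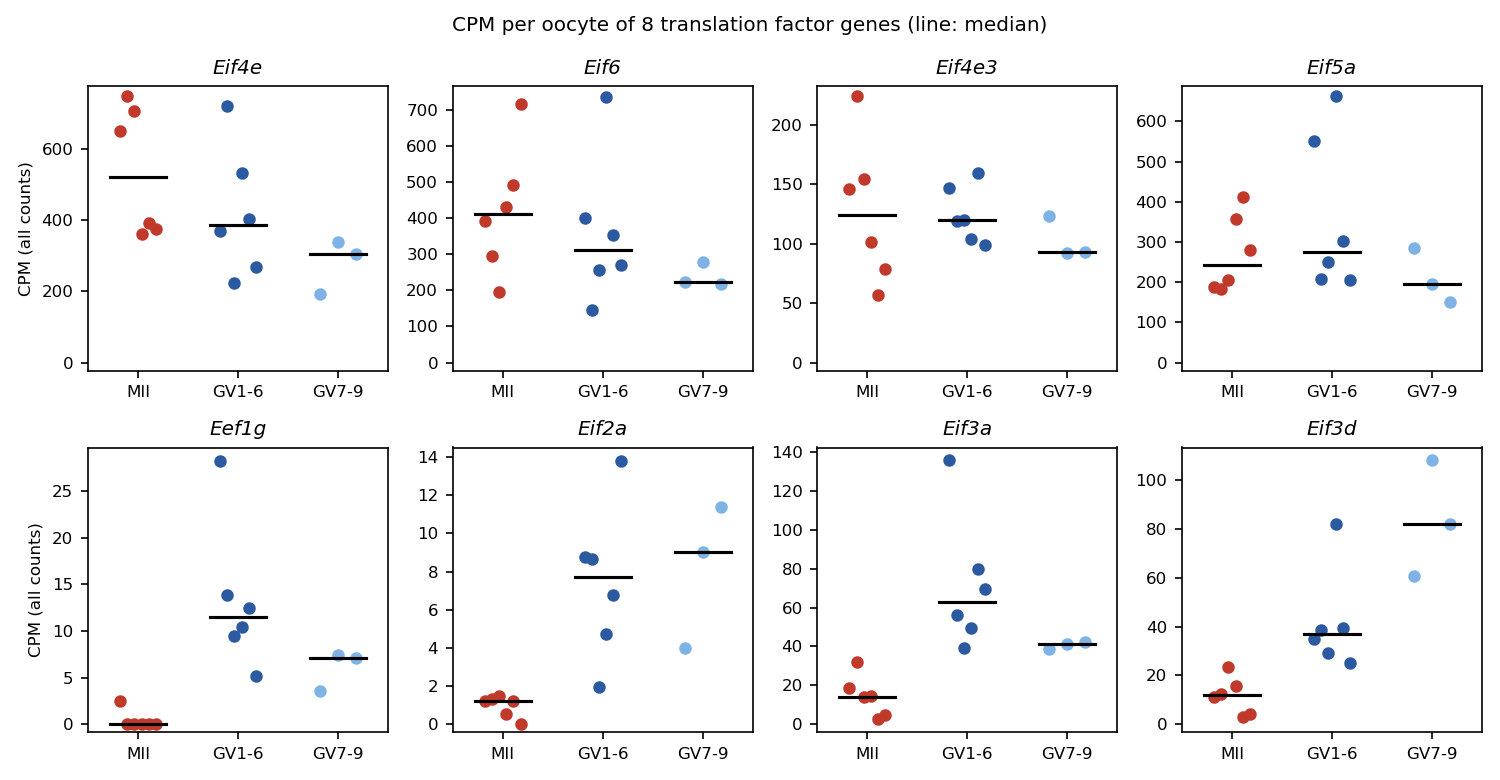
CPM per oocyte of Eif4e, Eif6, Eif4e3, Eif5a, Eef1g, Eif2a, Eif3a and Eif3d in MII, GV1 to GV6 and GV7 to GV9 oocytes. Points are oocytes, lines are medians, and each panel has its own linear axis. All MII oocytes lie below all GV oocytes for Eef1g, Eif2a, Eif3a and Eif3d, and the stages overlap for the 4 genes of the upper panels.

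In the elongation group the subunits of the exchange factor eEF1B differed among themselves. Eef1g, its gamma subunit, had the lowest ratio of all 55 measured genes. It was at 0 to 2.47 CPM in MII oocytes (median 0), against 3.54 to 28.3 CPM in GV oocytes (median 9.43). In MII it was detected in MII1 alone, with 2 counts, while all 9 GV oocytes held it, 485 counts in all. Its GV level was 53.2 times its MII level in CPM (95% counting interval 14.6 to 441), with 62.2 times (17.1 to 515) for GV1 to GV6 and 28.4 times (7.57 to 239) for GV7 to GV9. Its ratio of −4.43 ± 0.99 depends on the count of 0.5 added, being −3.01 with 5 added and −6.59 without MII1. In relative level, on whose scale the spread was taken, the stages lay apart by a narrow margin, at −4.33 to −2.40 in MII and −2.30 to −0.23 in GV.

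Eef1b2, the subunit that exchanges the nucleotide on eEF1A, was at 1.04 to 26.9 CPM in MII oocytes (median 9.94) and 10.3 to 121 CPM in GV oocytes (median 33.6), with a ratio of −1.30 ± 1.73 and overlapping ranges. Eef1d, a further exchange subunit, stood on the other side of the median gene, at 0.50 ± 1.01. Eef1a1 itself, which carries the aminoacyl-tRNA, was at 94.3 to 287 CPM in MII oocytes (median 218) and 180.3 to 1117 CPM in GV oocytes (median 362). Its ratio was −0.25 ± 1.05, and it was 0.24 with GV1 to GV6 alone and −1.22 with GV7 to GV9 alone. Its tissue-restricted paralog Eef1a2 had 0 MII counts and 4 GV counts.

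Eef2, the translocase, had the highest level per kb of the elongation group, 131 CPM per kb in MII and 188 CPM per kb in GV. It was at 338 to 566 CPM in MII oocytes (median 426) and 214 to 1058 CPM in GV oocytes (median 433), with a ratio of 0.46 ± 0.96 (0.22 with GV1 to GV6 alone and 1.40 with GV7 to GV9 alone), and the MII range lay inside the GV range. Eef2k, whose kinase inactivates eEF2, had a ratio of −0.05 ± 1.12. Eefsec, the elongation factor for selenocysteine, had the highest ratio of the group, 0.87 ± 0.73, and was at 84.3 to 189.9 CPM in MII oocytes (median 107) and 78.9 to 214 CPM in GV oocytes (median 103). In CPM its log2 ratio was −0.12. Eef1e1, a component of the multisynthetase complex, was at 0.47 ± 1.56 (1.14 and −0.67 in the same order). Of the methyltransferases that modify eEF1A and eEF2, Eef1akmt4 alone was measured, at 0.80 ± 2.32. Eef1akmt1, Eef1akmt2 and Eef1akmt3 had 0 MII counts and 31, 35 and 2 GV counts, and Eef2kmt had 5 MII counts and 49 GV counts.

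Many mRNAs of the translation machinery begin with a run of C and T bases, the 5′ terminal oligopyrimidine (TOP) start, through which mTOR controls their translation in cultured mammalian cells. A list of 10 such factor genes known from that work was taken: Eef1a1, Eef1a2, Eef1b2, Eef1d, Eef1g, Eef2, Eif3e, Eif3f, Eif3h and Eif4b. Of the 9 measured, 3 were at least 2-fold lower in MII (15.5% of all measured genes) and 0 higher (12.1%), and their median ratio was −0.83 ± 0.74, from −4.43 for Eef1g to 0.76 for Eif4b. It was −0.24 with GV1 to GV6 alone and −0.82 with GV7 to GV9 alone. The relative level of the list per oocyte was −0.64 to 0.48 in MII oocytes (median 0.34) and 0.06 to 1.89 in GV oocytes (median 1.15), overlapping. Of the 46 measured genes outside the list, 6 were lower and 2 higher, with a median of −0.02 ± 0.24.

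The annotated starts are shown for genes that carry a long run and for genes of the list that do not. Starts in these oocytes were not measured, so a window without a long run does not show that an mRNA lacks a TOP start. Each sequence holds 15 bases before the RefSeq transcription start (GRCm38.p6) and 15 from it on, 5′ to 3′ on the gene's strand, with the longest unbroken run of C and T bases in capitals. Eef1a1 (chr9:78481710-78481739, minus strand), Eif3f (chr7:108934400-108934429, plus), Eif2s3x (chrX:94212637-94212666, minus) and Eif3l (chr15:79075208-79075237, plus) have runs of 10, 15, 16 and 10 bases. Eif4b (chr15:102073758-102073787, plus) has 7 bases, all before the annotated start, and Eef2 (chr10:81176616-81176645, plus) and Eef1b2 (chr1:63176816-63176845, plus) have 2 and 4.
Eef1a1: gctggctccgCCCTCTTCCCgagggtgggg
Eif3f: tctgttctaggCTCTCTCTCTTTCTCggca
Eif2s3x: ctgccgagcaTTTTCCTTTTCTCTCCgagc
Eif3l: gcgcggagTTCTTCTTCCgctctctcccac
Eif4b: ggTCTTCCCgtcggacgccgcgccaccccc
Eef2: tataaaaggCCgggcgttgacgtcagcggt
Eef1b2: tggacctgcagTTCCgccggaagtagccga

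A run of at least 8 C and T bases was sought on the gene's strand of this window, before or after the start. It was found in 7 of the 45 measured factor genes with a RefSeq promoter (15.6%). Among measured genes of all kinds, 1165 of 7595 had one (15.3%). Over all 27025 genes with a promoter the share was 13.9%. Of the 6 listed TOP genes with a promoter, 3 had such a run, and that of Eef1a2 lay wholly before the annotated start. The 7 measured genes with a run had a median ratio of −0.25, with 1 at least 2-fold lower (Eif3f) and 1 at least 2-fold higher (Eif4e, by a run before its second start). The 38 with a shorter run had a median of −0.01, with 7 lower (15.5% of all measured genes) and 0 higher (12.1%). Genes with a run were thus found on both sides of the median gene.

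Oocyte mRNAs that are translated during maturation often hold a cytoplasmic polyadenylation element near their 3′ end, to which the protein CPEB binds in frog and mouse oocytes. The motifs TTTTAT and TTTTAAT were searched on the transcript strand in the last 100 bases of the longest annotated transcript (GENCODE M21, GRCm38). Of the 55 measured genes 5 held a match (9.09%), against 1847 of 9297 measured genes of all kinds (19.9%). The sites of 3 of them are shown because their ratios differ, with the motif in capitals. Eif4e3 (chr6:99625217-99625234, minus strand) was at 0.98, Eif1ax (chrX:159389889-159389914, plus) at −1.08 and Eif3m (chr2:104999703-104999728, minus) at −1.67.
Eif4e3: aaTTTTATttttgaactt
Eif1ax: tcagtggatgTTTTATgctgcacaaa
Eif3m: atacctgaatTTTTATgaaaatgatt

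The others were Eef1a1 and Eif3j2, at −0.25 and −0.42. The median of the 5 was −0.42, and that of the 50 without a match −0.02. Eif4e, Eif6 and Eef1g had no match in this window.

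Lists of genes that work beside these factors had medians between 0.07 and 0.66. Over all measured genes, 15.5% were at least 2-fold lower in MII and 12.1% at least 2-fold higher. Of the 6 measured genes of termination and recycling, 0 were at least 2-fold lower in MII and 1 was higher, the release factor Gspt1 at a ratio of 1.14, with a median of 0.27 ± 0.48. Of 17 measured regulators of the factors, 2 were lower and 1 higher, with a median of 0.11 ± 0.46. The lower ones were Paip2, an inhibitor of the poly(A)-binding protein, at −1.24, and Larp1, which binds TOP starts and represses these mRNAs, at −1.09. The higher one was Pdcd4, an inhibitor of the helicase eIF4A, at 1.06. Of 21 measured cytosolic tRNA synthetases and cofactors, 2 were lower and 3 higher, with a median of 0.07 ± 0.70. Of 5 measured mitochondrial translation factors, 1 was lower and 2 were higher, with a median of 0.66 ± 1.15.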

How the data were processed

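Each oocyte has 1 deposited file of raw counts by Ensembl gene ID, per the file headers and as the whole numbers in it show. Reads were handled with cutadapt 4.0 and STAR 2.7.10a on GRCm39, as named in the submitters' processing notes. Which tool counted them, on which annotation and strand, and how reads matching several genes were treated, was not given in the sources used here. Per the labels' protocols, cDNA was amplified by 28 PCR cycles and sheared to 300 bp. Reads in a stretch that 2 genes share may therefore not be separable, and copies and pseudogenes may share reads. Of the measured factor genes, 10 overlap another measured gene on the other strand by gene span, introns included (Eif1ad, Eif1b, Eif2ak1, Eif2b4, Eif2d, Eif3j1, Eif3m, Eif5b, Eef1b2 and Eef1akmt4), and 10 pseudogenes are named after factor genes, of which 9 had a count (Eif4a-ps4 the most, 32 in MII and 239 in GV).

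Symbols, biotypes, exon lengths and 3′ ends came from GENCODE M21 (GRCm38), an older build than that of the files, and promoters from RefSeq (GRCm38.p6). Of 28785 gene IDs, 28402 (98.7%) had a symbol. Of the factor genes, 52 had a promoter. Oocytes were grouped by their labelled stage, and the members and lists were chosen with earlier results of these data known. The TOP list comes from work in cultured cells. Genes that a file does not list have 0 counts there.

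The counts of a stage's oocytes were summed. The log2 ratio MII/GV of CPM was taken after adding 0.5 to each sum and given relative to the median of the 10090 genes that reach 5 CPM in the higher stage. A gene was counted as lower or higher from 2-fold on. With 1 sample per stage no p-value was made. Intervals are exact Poisson 95% intervals of the sums, and the interval of a ratio is conditional on their total. The text gives values for the gene with the highest CPM per kb and the lowest and highest ratio in each group, those whose relative levels do not overlap, and the paralogs. The remaining genes were added after their values were seen. Within a stage, no pair of oocytes (51 pairs) was as alike as sampling noise would make them, the lowest chi-square per degree of freedom being 7.26. The calculation was tested on simulated data. Alternatives were other scalings (edgeR TMM, DESeq2 median of ratios, CPM without centring, totals without the largest feature), means, medians or thinned counts over oocytes, other filters and added counts, each set of GV oocytes, and leaving out oocytes. Tools were Python 3.11.15, pandas 2.3.3, numpy 2.4.6, scipy 1.17.1, matplotlib 3.10.9, R 4.3.3, edgeR 4.0.16 and DESeq2 1.42.0.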

Additional observations from a re-analysis of the deposited data

Results flagged for a closer look

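In 11 of 110 sets of CPM values (55 genes in each stage), 1 oocyte lay apart from the others by Dixon's 95% limit. Its rate of about 1 in 20 by chance holds for normally distributed values, and the CPM values were not tested for that. In all 11 the oocyte was the highest of its set, so the number is not set against chance. In MII oocytes, Eef1g was at 2.473 CPM in MII1 and at 0 in the others. Eif2ak3 was at 5.258 CPM in MII2, next to 1.455 CPM. Eif2b4 was at 114.6 CPM in MII6, next to 55.65 CPM, and Eif4e2 at 84.95 CPM in MII5, next to 43.86 CPM.

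Of the 7 in GV oocytes, 4 concerned GV4. There Eif6 was at 736.3 CPM (next 401.2), Eif2b2 at 373.3 CPM (next 217.7), Eef1d at 292.3 CPM (next 159.4) and Eif3m at 64.26 CPM (next 30.3). In GV1, Eif3a was at 135.7 CPM (next 79.82) and Eef1g at 28.3 CPM (next 13.84). In GV9, Eif2ak3 was at 31.73 CPM (next 11.43).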

How the results depend on the processing

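No paired analysis was possible because the stages hold 1 sample each with no mouse named, the replicate numbers only name oocytes, and no result comes from a test. In CPM without centring, 31 genes were lower by 2-fold or more and 0 higher, with medians of −1.02 for all measured genes, −0.84 for eIF1, eIF5 and eIF6, −1.03 for eIF2, −1.74 for eIF3, −0.93 for eIF4, −0.52 for elongation and −1.81 for the TOP list, with −0.71 for termination, −0.87 for the regulators and −0.92 for the tRNA synthetases. The median of all factor genes was −0.27 with median-of-ratios factors (12 lower, 2 higher), and −0.34 with totals that leave out the largest feature (15 lower, 2 higher). TMM gave 10 lower and 2 higher. The median measured gene stood at −0.11, −0.22 and −0.29 with TMM, median-of-ratios and those totals. Beside these shifts of all genes, eIF4 was −0.06 with TMM, and eIF1, eIF5 and eIF6 was −0.15 with median-of-ratios. With no filter on level, 15 were lower and 4 higher, and the medians of elongation and mitochondrial factors were −0.14 and −0.53. Against GV7 to GV9 alone, 9 were higher and elongation was −0.67. Without MII5 and MII6, termination was −0.26. Leaving out each oocyte in turn gave 7 to 10 lower genes, 2 to 4 higher, and medians of −0.17 to 0.01 for all factor genes, −0.86 to −0.57 for eIF3 and −0.93 to −0.55 for the TOP list. The median of eIF3 stayed below 0 in all settings tried (−1.74 to −0.35). The −1.74 is that of CPM without centring, where the median measured gene itself stood at −0.98. The −0.35 is that with GV1 to GV6 alone and is smaller than the group's spread of 0.44. The shallow MII libraries limit genes with few MII counts most, such as Eef1g, Eif2a and Eif2ak3. Over all alternatives, 25 values at the level of groups moved and 365 did not, and 22 values below that level moved and 1023 did not. The latter were ratios of single genes, judged by their spread, and the number of measured factor genes, judged by fold. A ratio counted as moved only where it shifted by at least its spread, so these numbers do not show that single ratios are stable. Eif3k, at 0.25 ± 1.61, counted as not moved at −0.71 without MII5 and MII6.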

Other observations

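RefSeq gives a symbol that begins with Eif or Eef to 2 further genes, which the gene table used here names otherwise. Eef1aknmt (Mettl13), a methyltransferase of eEF1A, had 2 MII counts and 96 GV counts. Eif4a3l1 (Gm8994), a copy of Eif4a3, had 0 MII counts and 26 GV counts. Neither reached 5 CPM in either stage.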
